A study of Homo sapiens with 2 samples.

Results

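The 42 genes described here encode proteins of homologous recombination, the Fanconi anaemia pathway and the DNA damage checkpoint, with 2 mismatch repair genes among them. They were chosen by name from the deposited count table, which holds 58735 genes, and all 42 were found in it. The study compared RNA-seq of a highly metastatic derivative of SUIT-2, a human pancreatic adenocarcinoma cell line, between untreated cells (treatment label NC) and cells treated with dihydroartemisinin (DHA). Each group consists of 1 library, so the differences given here are between 2 libraries, without any check against replicates, and no p-value was computed. DHA is the active metabolite of the artemisinin antimalarials. The sources used here give neither its dose nor the exposure time, and do not say whether the untreated cells received a vehicle.

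Homologous recombination repairs a DNA double-strand break by copying the sister chromatid, and therefore works mainly in S and G2 phase. The broken end is trimmed to a single strand, the BRCA1, PALB2 and BRCA2 proteins help a protein filament form on it, and the filament invades the intact duplex. The Fanconi pathway removes crosslinks between the strands: a core complex attaches ubiquitin to FANCD2 and FANCI, and nucleases and recombination complete the repair. The kinases ATM and ATR sense breaks and stalled forks and, through CHEK2 and CHEK1, hold the cell cycle. Transcription of many of these genes rises before S phase under E2F factors. In bulk RNA, fewer cells in S phase and less RNA per cell cannot be told apart.

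Counted reads came to 15452609 untreated and 14521101 with DHA, of which the 42 genes took 0.178% and 0.131% of them. Their counts ran from 44 to 1812 reads in the untreated library and from 16 to 1308 in the DHA library, with medians of 511 and 348. Reads of the 6 epithelial marker genes summed to 51056 untreated and 19100 with DHA. KRT8 made up most of this sum (29850 and 11840 reads), while EPCAM had 1396 and 249 reads and CDH1, which encodes E-cadherin, 933 and 23. The library protocol in the labels names retina, and the retinal markers CRX, RCVRN and RLBP1 had 0 reads in both libraries while NRL had 20 and 8. Of 3 leukocyte markers PTPRC and CD3E had 0 reads in both and CD14 had 11 and 8. Of 3 fibroblast and endothelial markers DCN had 0 in both, COL1A1 had 83 and 11 and PECAM1 280 and 54. The part of these marker differences in the results below was not tested.

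Most of the 42 genes had fewer reads with DHA, but few by a large factor. A gene was called lower or higher when 1 or both libraries gave 50 reads or more, its scaled ratio was at least 2-fold and the exact 95% counting interval of the ratio excluded 1. Of the 42 genes 41 had enough reads, and DMC1 did not. RMI2, RAD50, FANCD2, BRIP1 and CHEK2 were called lower, 5 of 41 or 12.2%, and 0 were called higher. Over all 12064 genes with enough reads 10.3% were called lower and 6.72% higher, so the share called lower among the 41 is near that of all genes and is no result about them. The pattern lies in smaller differences, among genes that were chosen with earlier results of these data known. The log2 ratio of DHA to untreated was below 0 for 38 of the 41 genes, all but MRE11, FANCB and PMS2, against 47.8% of all genes. With upper-quartile scaling MRE11 and FANCB also lay below 0, at -0.05 and -0.03. Further, the counting interval lay wholly below a ratio of 1 for 30 (73.2%), against 35.5% of all genes. It lay wholly above 1 for 0 of the 41, against 39.8% of all genes. At a threshold of 1.5-fold 17 of the 41 were lower, where 19.2% of all genes were, and 0 were higher, where 18.9% were. The median log2 ratio was -0.48, with the middle 50% between -0.83 and -0.19, beside a median of 0.04 over all genes.

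**Figure D1:**
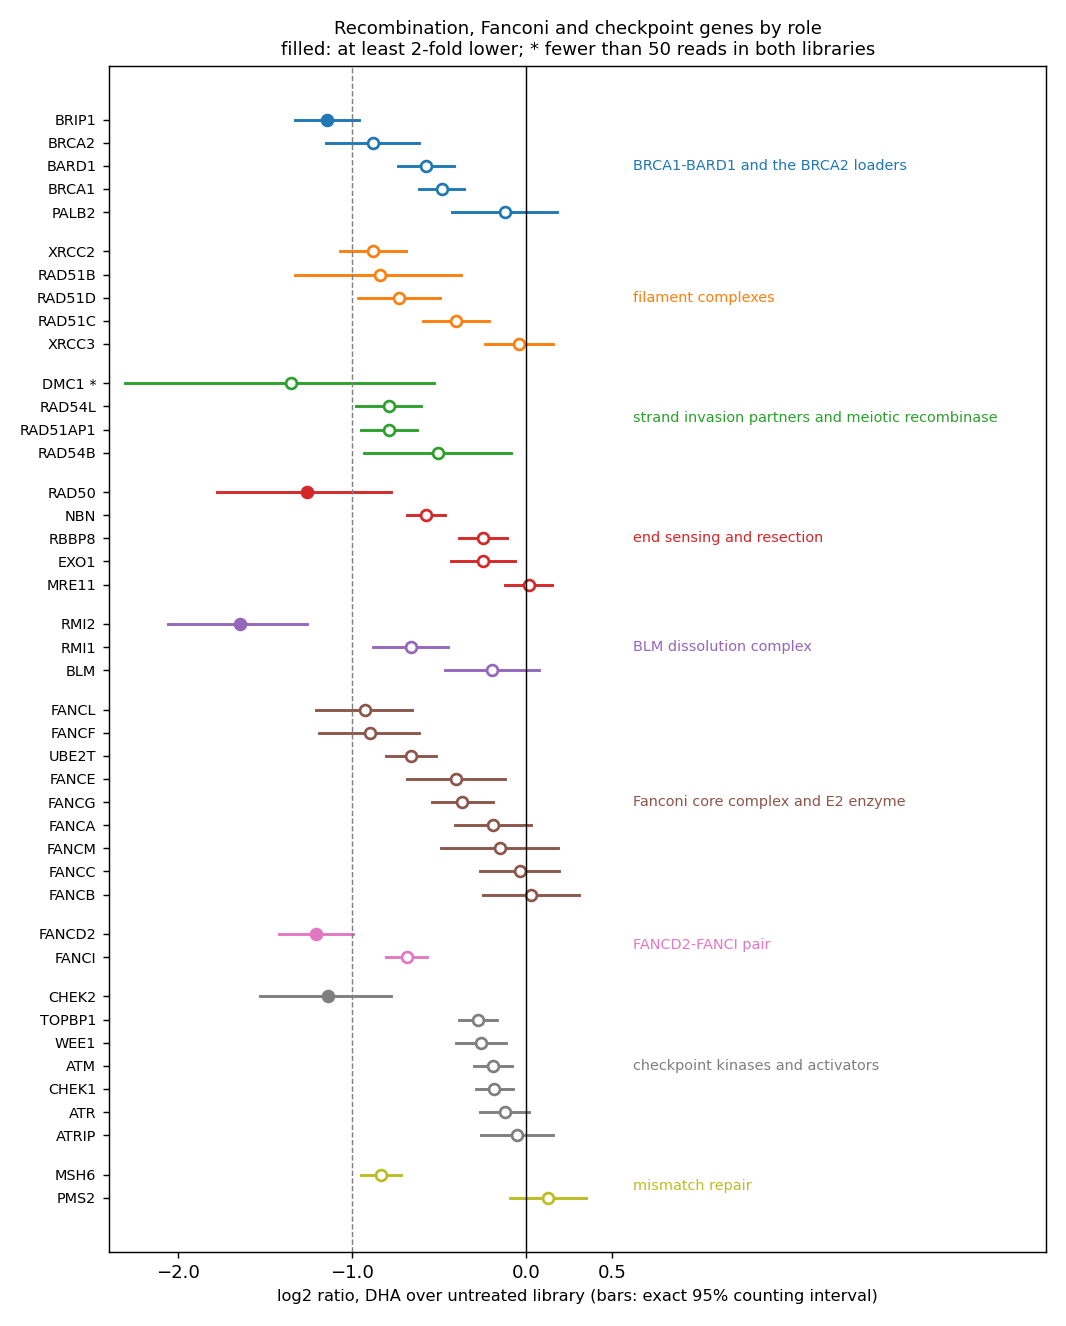
Log2 ratio (DHA over untreated) for each of the 42 genes, grouped by role, with the exact 95% counting interval as a bar; filled points are the 5 genes called lower, and the dashed line marks 2-fold lower. All but MRE11, FANCB and PMS2 lie to the left of 0, and RMI2 lies farthest left at -1.64.

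Promoter sequence is shown for 6 genes because it lets some of the genes called lower be set beside genes near a ratio of 1. RefSeq promoter windows (GRCh38.p14, 250 bases before to 50 after an annotated start) were found for 37 of the 42 genes, in 54 windows, since some genes have several starts. WEE1, FANCI, NBN, RMI2 and RAD54B had no entry. The 150 bases below run from 140 before to 10 after the start, 5′ to 3′ on the gene's strand. Capitals mark 2 kinds of words, on either strand: E2F words (TTTCGCGC, TTTGGCGC, TTTCCCGC or TTTGCCGC) and CCAAT words, bound by NF-Y. FANCD2, BRIP1 and CHEK2 were called lower, TOPBP1 had a log2 ratio of -0.28, and FANCB and MRE11 had 0.03 and 0.02. RAD50, also called lower, is not shown, and its window holds neither kind of word. PMS2 and FANCC, with log2 ratios of 0.13 and -0.04, have E2F words and are not shown either. The 6 genes are thus no even sample of the windows.
FANCD2 (chr3:10026297-10026446, plus strand): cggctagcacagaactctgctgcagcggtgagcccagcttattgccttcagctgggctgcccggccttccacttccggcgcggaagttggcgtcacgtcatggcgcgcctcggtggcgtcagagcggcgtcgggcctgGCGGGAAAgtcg
BRIP1 (chr17:61863519-61863668, minus strand): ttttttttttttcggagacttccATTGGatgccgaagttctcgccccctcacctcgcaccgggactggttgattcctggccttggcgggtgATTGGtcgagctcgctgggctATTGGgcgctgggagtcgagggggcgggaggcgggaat
CHEK2 (chr22:28741811-28741960, minus strand): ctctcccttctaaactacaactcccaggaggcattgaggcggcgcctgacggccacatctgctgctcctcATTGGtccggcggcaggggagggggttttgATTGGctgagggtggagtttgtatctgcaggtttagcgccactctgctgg
TOPBP1 (chr3:133661932-133662081, minus strand): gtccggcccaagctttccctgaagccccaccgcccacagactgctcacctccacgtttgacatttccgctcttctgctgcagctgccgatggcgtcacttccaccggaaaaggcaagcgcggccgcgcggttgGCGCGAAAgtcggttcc
FANCB (chrX:14873060-14873209, minus strand): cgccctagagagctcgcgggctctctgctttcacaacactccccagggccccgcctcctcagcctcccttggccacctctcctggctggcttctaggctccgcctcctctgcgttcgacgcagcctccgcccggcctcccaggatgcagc
MRE11 (chr11:94493835-94493984, minus strand): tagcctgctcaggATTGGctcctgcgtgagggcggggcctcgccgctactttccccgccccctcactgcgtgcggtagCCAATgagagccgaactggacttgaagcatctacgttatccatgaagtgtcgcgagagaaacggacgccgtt
FANCD2 has an E2F word (GCGGGAAA, the reverse complement of TTTCCCGC) that begins 2 bases before its start, and TOPBP1 has one (GCGCGAAA) that begins 7 bases before its start. BRIP1 shows 3 CCAAT words and CHEK2 2, all as ATTGG on the gene's strand, and MRE11 shows 2, 1 in each orientation. The 150 bases of FANCB hold neither word.

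Across the windows, an E2F word was present in 20.4% of the 54 windows of these genes and in 3.31% of all 35116 windows. Several windows of 1 gene can overlap, so by gene the count was 10 of 37 (27.0%), beside 6.89% of the 9206 genes with enough reads that the table holds. The 37 include DMC1, which had too few reads, whereas the 9206 leave such genes out. The 10 genes with the word were DMC1, EXO1, FANCA, FANCC, FANCD2, MSH6, PMS2, RMI1, TOPBP1 and XRCC2. The 9 of them with enough reads had log2 ratios from -1.21 (FANCD2, called lower) to 0.13 (PMS2), and DMC1, with too few reads, had -1.35. The 9 had a median log2 ratio of -0.28, and the 27 without the word -0.40. A CCAAT word was present in 19 of the 37 genes (51.4%) and in 43.6% of the 9206. The 19 had a median of -0.19 and the 17 others with enough reads -0.40. The CHR word TTTGAA, tied to late cell cycle genes, was found in 4 of the 37 (10.8%, against 13.5%), and the GC box GGGCGG in 30 (81.1%, against 78.7%). E2F words overlapped a GC box in 2 windows, both of PMS2, and no other pair of these words overlapped in the 54 windows. A match is a description of these letters only.

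The BRCA1 and BRCA2 genes and their partners had unequal ratios. BRCA1 (ENSG00000012048, chromosome 17, 43044295 to 43170245 on GRCh38, minus strand), the ubiquitin ligase that directs breaks to recombination, had 1211 reads untreated and 820 with DHA, a log2 ratio of -0.48 (95% counting interval -0.61 to -0.35). BARD1, its obligate partner, had 794 and 505 reads and a log2 ratio of -0.57 (-0.74 to -0.41). The intervals of these partners overlapped. BRCA2 (ENSG00000139618, chromosome 13, 32315474 to 32400266, plus strand), which helps the filament form, had 348 and 179 reads and a log2 ratio of -0.88 (-1.15 to -0.62). PALB2, the bridge between BRCA1 and BRCA2, had 200 and 174 reads, a ratio not distinguishable from 1 at this depth (log2 ratio -0.12, -0.42 to 0.18). BRIP1 (ENSG00000136492, chromosome 17, 61681266 to 61863521, minus strand), a helicase that binds BRCA1 and is also known as FANCJ, had 798 and 342 reads and was 2.21-fold lower (interval 1.94 to 2.52). BRIP1 was thus the only gene of these 5 past 2-fold, and BRCA2 passed 1.5-fold but not 2-fold.

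BRCA1 made up 60.4% of the reads of the BRCA1 and BARD1 pair in the untreated library (exact interval 58.2% to 62.5%) and 61.9% with DHA (59.2% to 64.5%). Such shares do not depend on how the libraries are scaled. They restate the ratios of the genes within a set, and all sets were looked up after the values were seen. The intervals overlapped, and like all intervals here they leave out variation between cultures.

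RAD51B, RAD51C, RAD51D, XRCC2 and XRCC3 form complexes that stabilise the filament of protein on single-stranded DNA. These 5 genes had log2 ratios from -0.88 to -0.04 and a median of -0.73. XRCC2 had 662 and 341 reads (log2 ratio -0.88, -1.07 to -0.69), RAD51B 110 and 58 (-0.84, -1.33 to -0.37) and RAD51D 406 and 232 (-0.73, -0.97 to -0.49). RAD51C, a member of both complexes, had 549 and 394 reads and a smaller log2 ratio of -0.40 (-0.59 to -0.21). Within the complex of RAD51B, RAD51C, RAD51D and XRCC2, RAD51C took 31.8% of the reads untreated and 38.4% with DHA, with exact intervals that lay apart. XRCC3 had 451 and 416 reads, a ratio that spanned 1 (-0.04, -0.23 to 0.16). However, 76.7% of its exon length lies on the opposite strand from exons of KLC1, which had 603 and 995 reads, and no source used here says whether counting used strand. The value of XRCC3 is therefore uncertain.

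Of the strand invasion genes RAD51AP1 and RAD54L had similar ratios, while RAD54B and DMC1 had fewer reads and wide intervals. RAD51AP1, which stimulates the pairing of DNA strands, had 886 and 486 reads and a log2 ratio of -0.79 (-0.95 to -0.63). RAD54L, the motor protein that remodels chromatin and drives invasion, had 662 and 363 reads and also -0.79 (-0.98 to -0.60). LRRC41, which shares 25.1% of the exon length of RAD54L on the opposite strand, had a log2 ratio of -0.23. Its relative RAD54B had 120 and 80 reads and -0.50 (-0.93 to -0.09), with 59.1% of its exon length shared with FSBP on the same strand. DMC1, the recombinase of meiosis, had 44 and 16 reads, and its log2 ratio of -1.35 had an interval of -2.31 to -0.53. It would be called lower if the minimum were 20 reads.

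End sensing and resection genes differed among themselves. The MRE11, RAD50 and NBN proteins form the complex that binds broken ends and activates ATM. MRE11 had 921 reads untreated and 883 with DHA, a log2 ratio of 0.02 (-0.12 to 0.15). NBN had 1812 and 1152 reads and -0.57 (-0.68 to -0.47), an interval apart from that of MRE11. RAD50 (ENSG00000113522, chromosome 5, 132556019 to 132646344, plus strand), the coiled-coil ATPase of the complex, had 122 reads untreated and 48 with DHA. It was 2.39-fold lower (1.71 to 3.43). The count of RAD50 is uncertain, because 79.7% of its exon length is shared on the same strand with the annotated gene AC116366.3, which had 2 and 1 reads. How reads on shared exons were counted is not given. Per kilobase of its full exon length RAD50 had 0.811 RPKM (reads per kilobase, scaled to library size) untreated, beside 7.78 for MRE11 and 19.1 for NBN. Per kilobase of its 1987 unshared bases it would have 3.99. MRE11 took 32.3% of the reads of the complex untreated and 42.4% with DHA, NBN 63.5% and 55.3% and RAD50 4.27% and 2.30%, each with intervals that lay apart. RBBP8, which encodes the resection factor CtIP, had 979 and 781 reads (-0.25, -0.38 to -0.11), and the exonuclease gene EXO1 551 and 440 (-0.25, -0.43 to -0.06).

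BLM helicase with RMI1, RMI2 and the topoisomerase TOP3A dissolves crossed DNA intermediates without exchange. TOP3A is not among the 42 genes and was singled out after its value was seen. It had 665 and 916 reads, a log2 ratio of 0.54 (0.40 to 0.69). RMI2 (ENSG00000175643, chromosome 16, 11249619 to 11381662, plus strand), which stabilises the complex, had 229 reads untreated and 69 with DHA. It was 3.13-fold lower (2.39 to 4.17), the lowest ratio of the 41 genes and the only one past 3-fold. RMI1 had 473 and 283 reads and a log2 ratio of -0.66 (-0.88 to -0.45). BLM itself had 256 and 212 reads, with an interval that included 0 (-0.19, -0.46 to 0.07). RMI2 accordingly made up 23.9% of the reads of BLM, RMI1 and RMI2 in the untreated library (21.2% to 26.7%) and 12.2% with DHA (9.64% to 15.2%). The share of BLM was 26.7% (23.9% to 29.6%) against 37.6% (33.6% to 41.7%), and that of RMI1 was 49.4% and 50.2%, with overlapping intervals.

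**Figure D2:**
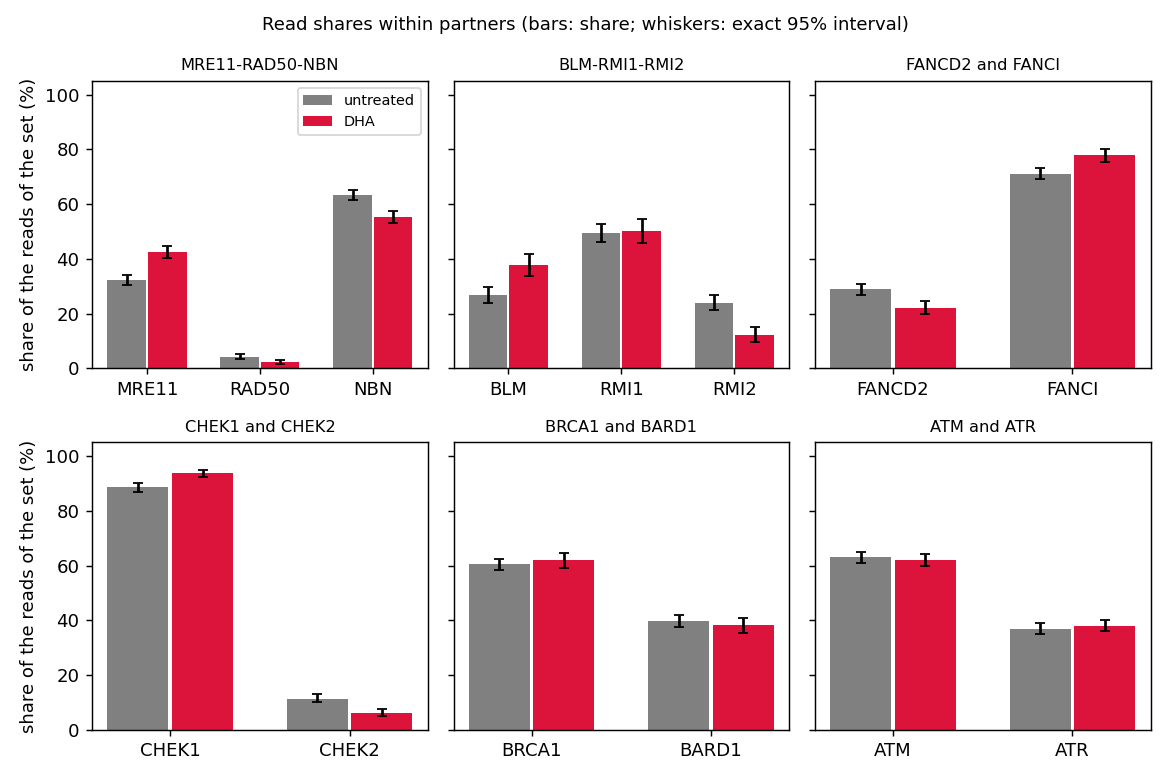
Share of each gene in the reads of its set of partners, in percent, for the untreated (grey) and the DHA library (red); whiskers are exact 95% intervals. RMI2, RAD50, NBN, FANCD2 and CHEK2 took a smaller share with DHA, whereas the BRCA1 and BARD1 pair and the ATM and ATR pair had overlapping intervals. The sets were looked up after the values were seen, and the shares restate the ratios.

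In the Fanconi pathway FANCD2, a target of ubiquitin, had a lower ratio than any gene of the core complex that modifies it. FANCI, the other target, did not. FANCD2 (ENSG00000144554, chromosome 3, 10026414 to 10101930, plus strand), the clamp that marks a crosslink for repair, had 629 reads untreated and 258 with DHA. It was 2.31-fold lower (1.99 to 2.68). FANCI, its partner in the clamp on DNA, had 1552 and 913 reads and a log2 ratio of -0.69 (-0.81 to -0.57). The interval of FANCI lay above that of FANCD2, while those of FANCL and FANCF in the core complex overlapped that of FANCD2. FANCD2 took 28.8% of the reads of the pair untreated (26.9% to 30.8%) and 22.0% with DHA (19.7% to 24.5%). FANCI shares 5.90% of its exon length with POLG on the opposite strand, and POLG had 377 and 958 reads. UBE2T, the ubiquitin-conjugating enzyme of the pathway, had 1067 and 640 reads and a log2 ratio of -0.66 (-0.80 to -0.52). This was the gene with the highest level of the 42 per length, at 41.96 RPKM untreated and 26.6 with DHA. Its exons are short, and with a trend of the ratio on gene length removed its log2 ratio was -0.41.

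The 8 core complex genes formed a graded series with 0 called lower or higher. FANCL, the ubiquitin ligase subunit, had 334 and 166 reads (-0.93, -1.21 to -0.66), and the adaptor FANCF 301 and 153 (-0.90, -1.19 to -0.61). FANCE had 255 and 183 reads (-0.40, -0.68 to -0.12) and FANCG 631 and 464 (-0.36, -0.54 to -0.19). FANCA, FANCM, FANCC and FANCB had intervals that included 0, with log2 ratios of -0.19, -0.15, -0.04 and 0.03. FANCM is the translocase that anchors the complex on DNA. FANCB binds FANCL directly in the core, and it had 222 and 215 reads. FANCB took 39.9% of the reads of this pair untreated (35.8% to 44.1%) and 56.4% with DHA (51.3% to 61.5%). These are the genes with the highest and the lowest ratio of the 8, so a difference in this share follows from that. Of the reads of all 8 genes FANCB took 8.45% untreated (7.41% to 9.58%) and 11.0% with DHA (9.66% to 12.5%). Other genes share 18.7% (VRK2) of the exon length of FANCL and 23.6% (ZNF276) of that of FANCA, both on the opposite strand.

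Checkpoint genes had small differences with 1 exception. ATM, the kinase of double-strand breaks, had 1488 and 1236 reads (log2 ratio -0.19, -0.30 to -0.08), and ATR, the kinase of stalled forks, 873 and 760 (-0.12, -0.26 to 0.02). The ATR partner ATRIP had 398 and 364 reads (-0.05, -0.26 to 0.16), and TOPBP1, which activates ATR, 1546 and 1209 (-0.28, -0.39 to -0.17). TREX1 shares 27.9% of the exon length of ATRIP on the same strand and had 0 reads in both libraries, so the count of ATRIP is uncertain. The effector kinase CHEK1 had 1565 and 1308 reads (-0.18, -0.29 to -0.07), and WEE1, which holds CDK1 inactive, 885 and 702 (-0.26, -0.40 to -0.11). CHEK2 (ENSG00000183765, chromosome 22, 28687743 to 28742422, minus strand), the effector of ATM, had 201 and 86 reads and was 2.21-fold lower (1.71 to 2.88). Its interval on the log2 scale, -1.53 to -0.77, lay below those of all 6 other genes of this role. CHEK2 took 11.4% of the reads of the CHEK1 and CHEK2 pair untreated (9.94% to 12.96%) and 6.17% with DHA (4.96% to 7.56%). ATM took 63.0% and 61.9% of the reads of the ATM and ATR pair, with overlapping intervals. Per length, CHEK1 stood at 15.5 RPKM untreated and 13.7 with DHA and CHEK2 at 2.91 and 1.31.

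Of the 2 mismatch repair genes, MSH6, a subunit of the mismatch sensor, had 1807 and 961 reads and a log2 ratio of -0.83 (-0.95 to -0.72). FBXO11 shares 16.2% of its exon length on the opposite strand and had 524 and 622 reads. PMS2, a subunit of the downstream endonuclease, had 342 and 354 reads (0.13, -0.09 to 0.35). PMS2 has near-identical pseudogene copies, so its reads are uncertain: the copy PMS2CL had 165 and 287 reads, PMS2P1 133 and 104 and PMS2P3 79 and 114. The named pseudogenes of CHEK2 and FANCD2 had 0 reads in both libraries. How reads matching more than 1 place were counted is not given, so this does not show that CHEK2 and FANCD2 were counted in full.

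**Figure D3:**
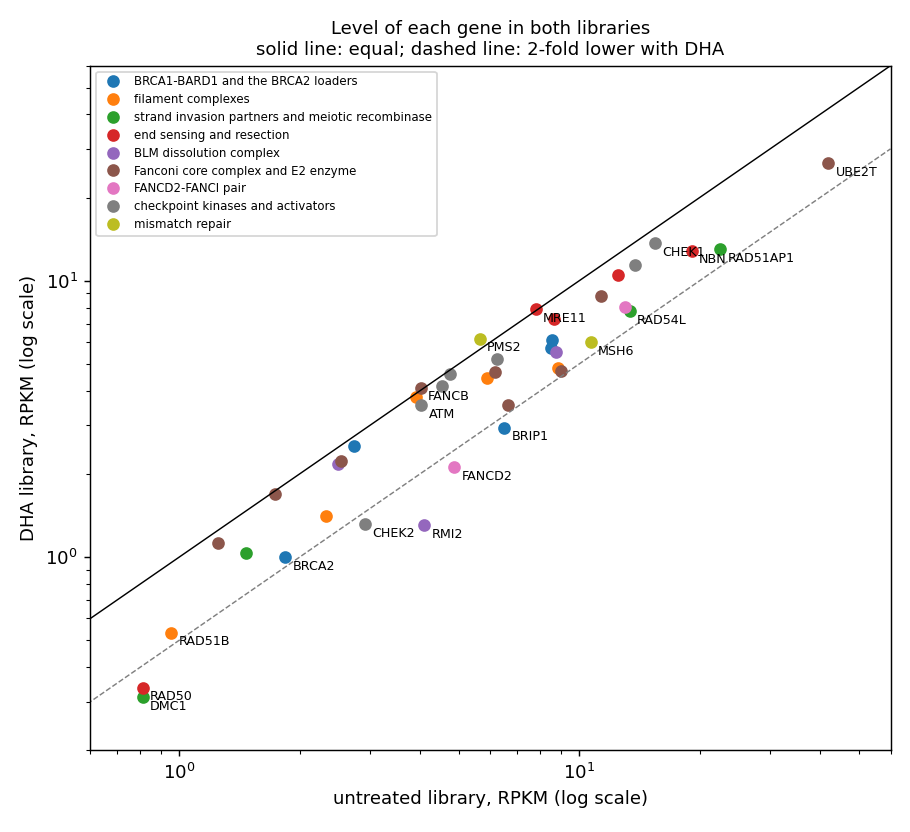
Level of each of the 42 genes in the untreated (horizontal) and the DHA library (vertical), in RPKM on log scales, coloured by role; the solid line marks equal levels and the dashed line 2-fold lower. UBE2T stands highest at 41.96 and 26.6 RPKM, and RMI2, FANCD2, BRIP1, CHEK2, RAD50 and DMC1 lie below the dashed line.

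Levels per length spanned a wide range, so the genes differ in how well the data measure them. The untreated RPKM of the 41 genes with enough reads had a median of 6.15, close to the 6.13 of all genes with enough reads. After UBE2T, the highest untreated levels were those of RAD51AP1 (22.5 RPKM), NBN (19.1), CHEK1 (15.5), TOPBP1 (13.7) and RAD54L (13.4). The lowest were RAD50 and DMC1 (0.811 each), RAD51B (0.956), FANCM (1.25) and RAD54B (1.47). Lengths here are the union of all annotated exons, which for ATM is 23972 bases against 13147 for its longest transcript, so levels of genes with many isoforms are understated. Across the 41 genes the log2 ratio had Spearman correlations of -0.12 with gene span, 0.14 with exon length, 0.09 with the GC content of the longest transcript and -0.12 with untreated RPKM. These are descriptions across genes that share 2 libraries. The 41 genes are longer than most, with a median span of 64951 bases against 32643 over all genes, and lower in GC (41.5% against 47.7%). Among the 3016 genes with the longest span the median log2 ratio was 0.08, and the 17 of the 41 among them had -0.50.

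Genes that start back to back with these genes did not share their ratios throughout. A divergent neighbour, starting within 1000 bases on the opposite strand and read away from the gene, was annotated for 15 of the 42, and in 9 pairs both genes had enough reads. The neighbour's ratio was above that of the gene in 7 of the 9, and in 5 of them the counting intervals lay apart. Of the 41 genes 38 had ratios below 0, where 47.8% of all genes did, so most genes would lie above them. These counts are therefore no result about shared starts, and other divergent pairs were not examined. BRCA1 and the autophagy receptor gene NBR1, whose annotated starts lie 236 bases apart, had log2 ratios of -0.48 and 0.80 (NBR1 1587 and 2625 reads). This distance is from the outermost annotated start of BRCA1. RefSeq gives BRCA1 another start, in a window at 43125315 to 43125614. NBR1 begins at 43170481, so it is not within 1000 bases of that other start. By RefSeq starts BRCA1 also had NBR2 as a divergent neighbour, 193 bases away. NBR2 had 81 and 80 reads and a log2 ratio of 0.06. FANCD2 and the pseudogene CIDECP, 49 bases apart, had -1.21 and 1.76 (CIDECP 29 and 94 reads), and CIDECP was called higher. RAD51AP1 had -0.79 and its neighbour C12orf4 -0.04 (535 and 494 reads). RMI1 had -0.66 and the RNA-binding protein gene HNRNPK -0.06 (9437 and 8568 reads). FANCB had 0.03 and MOSPD2 0.71 (364 and 566 reads). In the other pairs the intervals overlapped: DCTN5 had 0.27 beside PALB2, ZFYVE21 0.20 beside XRCC3, FKBP3 -0.39 beside FANCM and AIMP2 -0.19 beside PMS2. By RefSeq starts, looked up after the values were seen, 3 more genes had a divergent neighbour with enough reads that the first annotation did not give: MRE11 (0.02) beside ANKRD49 (0.44, 294 and 378 reads), ATM (-0.19) beside NPAT (0.03) and CHEK2 (-1.14) beside HSCB (-0.52, 108 and 71 reads). The median over the 9 pairs was -0.15 for the repair genes and 0.20 for their neighbours, and 0.04 over all genes.

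**Figure D4:**
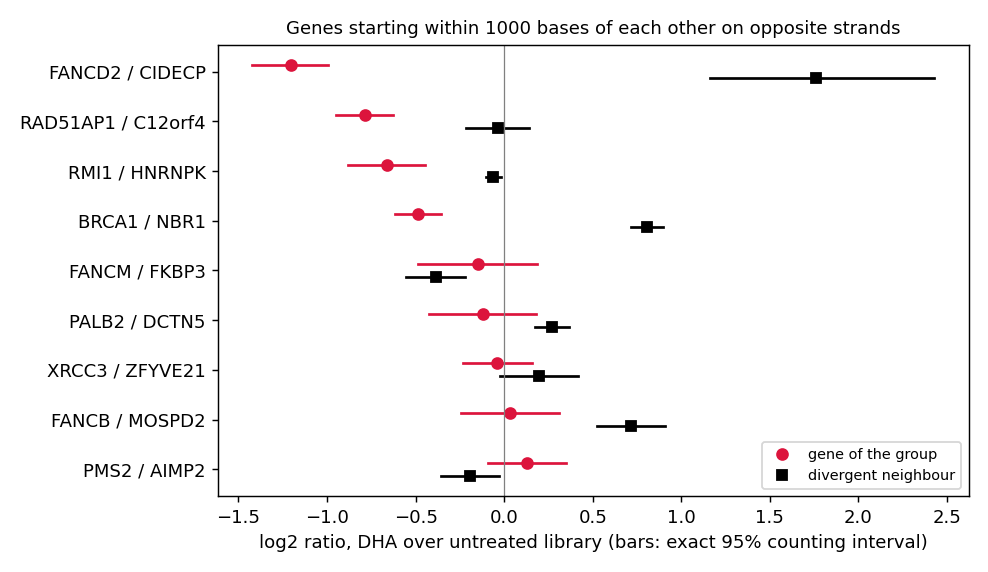
Log2 ratio (DHA over untreated) for 9 repair genes (red circles) and the neighbour that starts within 1000 bases on the opposite strand (black squares), with exact 95% counting intervals. FANCD2 and CIDECP lie farthest apart, at -1.21 and 1.76, and the intervals of FANCD2, RAD51AP1, RMI1, BRCA1 and FANCB lie left of those of their neighbours.

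Other genes of the same pathways showed a weaker tilt. A list of 67 further recombination, Fanconi and checkpoint genes had 63 with enough reads, with a median log2 ratio of -0.21. Of the 63, 4 were called lower (6.35%) and 0 higher. Over all genes 10.3% were called lower and 6.72% higher, so the share called lower is no result about these genes. Their counting interval lay wholly below 1 for 31 and wholly above for 18, beside 30 and 0 of the 41 genes above. The difference between the lists was not tested. The 4 lower genes were the fork protection gene TIMELESS (3299 and 1360 reads, 2.30-fold), the ATR activator gene ETAA1 (150 and 66, 2.14-fold), the CDK1-inhibiting kinase gene PKMYT1 (580 and 260, 2.11-fold) and H2AFX (6920 and 3175, 2.06-fold), which encodes the histone phosphorylated at breaks. PKMYT1 and WEE1 thus had log2 ratios of -1.08 and -0.26. On the other side stood the helicase gene WRN (183 and 343 reads, log2 ratio 0.98) and the nuclease gene MUS81 (416 and 698, 0.82), neither called and both singled out after their values were seen.

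The lists of 3 other repair pathways had medians closer to that of all genes than the 41 genes did. Over all genes 10.3% were called lower and 6.72% higher. Of 12 non-homologous end joining genes with enough reads 0 were called, with a median of -0.21. PRKDC, the kinase of that pathway, had 14846 and 7958 reads (-0.82, -0.86 to -0.78), and LIG4, its ligase, had 282 and 480 (0.85, 0.63 to 1.06). Both were singled out after their values were seen. The counting interval lay wholly below 1 for 6 of these 12 genes and wholly above for 2. The summed reads of the end joining list had a log2 ratio of -0.62, beside -0.46 for the 42 genes, so its median does not describe its most abundant genes. Of 21 nucleotide excision repair genes 1 was higher, CDK7 (517 and 1036 reads, 2.12-fold), and 0 were lower, with a median of 0.12. Of 19 base excision genes 2 were lower (10.5%, near the share of all genes), and the median was -0.25. The 2 were the uracil glycosylase gene UNG (1170 and 389 reads, 2.85-fold) and NTHL1 (151 and 57, 2.49-fold). Replication fork genes stood lowest, with 16 of 35 called lower (45.7%) and a median of -0.94, led by LIG1 (4.28-fold), MCM3 (3.74-fold), PRIM1 (3.73-fold) and POLE2 (3.48-fold). Mitosis genes had 2 of 28 lower (7.14%, below the share of all genes), ASPM (2.21-fold) and KIF20A (2.16-fold). Their median was -0.44, near the -0.48 of the genes described here. Ratios below 0 were found for 28 of 28 mitosis genes, 32 of 35 replication fork genes and 38 of the 41 genes, and for 47.8% of all genes. The counting interval lay wholly below 1 for 25 of the 28 mitosis genes (89.3%) and 31 of the 35 replication fork genes (88.6%), beside 73.2% of the 41.

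**Figure D5:**
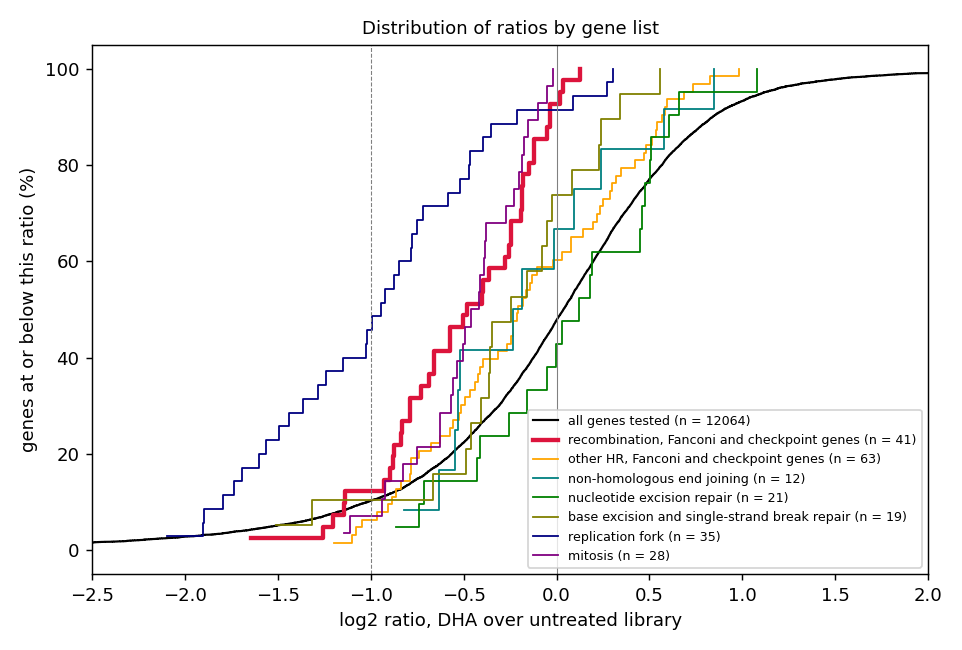
Cumulative share of genes, in percent, at or below each log2 ratio (DHA over untreated), for the 41 genes with enough reads (thick red), 6 other lists and all 12064 genes (black). The red curve crosses 50% at -0.48, between the replication fork list at -0.94 and the further recombination, Fanconi and checkpoint genes at -0.21, and next to the mitosis list at -0.44.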

How the data were processed

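Read counts per gene, whole numbers without normalization, were deposited by the authors for 1 untreated and 1 DHA library, with gene lengths. RNA was prepared with Trizol and libraries with a TruSeq kit, per the labels' protocols. The submitters' processing notes list the mouse build mm8, but all 58735 rows matched GENCODE release 29 on human GRCh38 in coordinates and exon length. The sources used here name no aligner or counter. Counts were scaled by TMM (edgeR 4.0.16, R 4.3.3), and 0.5 reads were added for ratios. Counting intervals are exact (Clopper-Pearson, 95%, scipy 1.17.1) and address counting error only. They treat each read as independent, and PCR copies are not independent molecules, so the intervals may be too narrow. A count of 0 allows up to 3 reads. Shares within partners have exact binomial intervals. RPKM used scaled library sizes and the deposited gene length. The size rule was tested on simulated data. DESeq2 1.42.0 size factors served as an alternative.

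The members, the 6 comparison lists (186 genes, all matched) and the rules were chosen with earlier results of these data known. All 42 genes could be named. Of each other list, the genes past the size rule were named, or the 4 with the largest absolute log2 ratio where there were more. Divergent neighbours with enough reads were named. Partner sets, genes sharing exons and pseudogene copies were looked up after the values were seen.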

Additional observations from a re-analysis of the deposited data

How the results depend on the processing

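With 1 library per group, culture-to-culture variation was not measured, and genes under about 200 reads have wide intervals. No paired analysis was possible because each group has 1 sample. RMI2, RAD50, FANCD2, BRIP1 and CHEK2 were called lower under total reads, DESeq2 and upper-quartile scaling, which moved each log2 ratio of the 42 genes by -0.07 to 0.01. The count called lower was 6 with minimums of 1 and 20 reads (DMC1 added), 4 with a minimum of 200 reads and 4 without genes sharing over 50% of their exon length (RAD50 left out), an alternative added after the data were seen, as was the joint length and GC trend. The median of the genes ran from -0.55 (upper quartile) to -0.40 (minimum of 200 reads), and the number with an interval below 1 from 27 (minimum of 200 reads) to 32 (DESeq2 and upper quartile).

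At 1.5-fold 17 genes were lower and at 3-fold 1, against 5. Over all genes 2320 and 556 were lower and 2284 and 219 higher at these folds, 2386 and 1432 were lower and higher with a minimum of 1 read, and 688 were lower with a minimum of 200. The median of all genes was -0.0020 with DESeq2 size factors and -0.0284 with upper-quartile scaling, both reversed in sign, 0.0136 and 0.0735 with minimums of 20 and 200 reads, 0.0736 after removal of a length trend and 0.0763 after removal of a joint length and GC trend. At 1.5-fold the further recombination, Fanconi and checkpoint list had 15 lower and 5 higher, end joining 2 and 1, nucleotide excision 3 and 3, the replication fork 26 lower and mitosis 8 lower. At 3-fold these lists and base excision had 0 called, except 7 lower replication fork genes. Base excision had 1 lower with a minimum of 200 reads, and mitosis 1 higher with minimums of 1 and 20.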
